A study of Mus musculus with 24 samples.

Results

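The collagen genes were followed in RNA of mouse cerebral cortex. They were taken by symbol, as every gene whose name has the form of a collagen alpha chain and which had at least 10 counts in at least 6 of 24 libraries. Of the 43346 genes in the deposited table, 44 carried such a symbol, and all 44 reached 10 counts in each of the 24 libraries. Each library came from the cortex of a different mouse, judged by the animal number in its title, and there were 4 groups of 6 libraries. The first group held control mice without stimulus, aged 55 to 57 days, and the second held control mice given lipopolysaccharide (LPS, a bacterial cell wall component that activates innate immunity), aged 54 to 56 days. The third held mice labelled Abca7 without stimulus, aged 55 to 58 days, and the fourth held mice labelled Abca7 given LPS, aged 54 to 56 days. The series design describes the Abca7 mice as heterozygous, and it addresses how Abca7, a lipid transporter gene, relates to brain inflammation. The labels do not state strain, sex, the kind of Abca7 allele, or the dose, route and timing of LPS. All groups share the tissue, and the labels mention no pooling.

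Collagens are extracellular proteins whose alpha chains wind into triple helices. Fibrillar collagens form the cables of connective tissue, network-forming type IV collagens are the scaffold of basement membranes, and other families decorate fibrils, form beaded filaments or span the cell membrane. The brain parenchyma holds little fibrillar collagen. There, basement membranes surround the blood vessels, and fibroblasts of the meninges and of larger vessels make most of the fibrillar chains. By textbook family, the 44 genes fell into 11 fibrillar, 6 basement membrane, 6 beaded filament, 9 fibril-associated, 4 transmembrane, 2 multiplexin and 3 short-chain network genes, and 3 others (Col7a1, Col26a1 and Col28a1).

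Libraries held 48149131 to 75741388 counts, and 2 ribosomal repeat loci took 5.88% to 18.7% of them. Abca7 itself was not lower under the Abca7 label: its median was 28.0 CPM (the count relative to the library's total, with TMM scaling) in unstimulated control mice, 25.6 in control mice given LPS, 31.3 in unstimulated mice labelled Abca7 and 30.0 in those given LPS. The label is therefore used as given. Neuronal markers were present in all libraries, and their mean log2 level differed by -0.05 to 0.02 between compared groups. The pieces of tissue differed in choroid plexus, the tissue that makes cerebrospinal fluid. Ttr, its most abundant transcript, had a median of 12.8 CPM in unstimulated control mice, where 5 of 6 libraries were under 100 CPM and replicate 1 was at 261 CPM. Medians were 250.4, 392.3 and 265.2 CPM in the other groups, in the order given above, and 1 unstimulated and 1 LPS library labelled Abca7 also lay under 100 CPM. Thalamus markers varied too, with sums of 53.2 to 174, 85.7 to 223, 50.6 to 142 and 53.8 to 183 CPM in the 4 groups, in the same order.

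Per kilobase of exon, a few collagens made up most of the collagen RNA in unstimulated control cortex. This scale divides by the deposited exon length, which for 31 collagens equals the gene's exon bases in a reference annotation. Whether that length matches the transcripts made here was not tested. The order of genes, the family shares and the absolute chain ratios below depend on it. Differences between groups in a gene or in a ratio of 2 genes do not. Col6a1, a chain of the beaded filaments around cells, stood highest at 15.3 ± 1.204 CPM per kilobase (SD, n = 6). The type IV chains of vessel basement membranes followed, with Col4a2 at 9.47 ± 0.711 and Col4a1 at 7.55 ± 0.648 CPM per kilobase. These 3 genes held 39.9% ± 1.52 of the summed collagen level. Next came Col25a1, a transmembrane collagen made by neurons, at 6.01 ± 0.601 CPM per kilobase, and Col19a1, a fibril-associated collagen found at synapses, at 4.002 ± 0.520. In 39 of the 43 steps down the order, neighbouring genes overlapped across the 6 libraries.

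By family, beaded filament genes held 22.7% of the summed level, basement membrane genes 22.4%, fibrillar genes 19.6%, fibril-associated genes 18.4% and transmembrane genes 11.1%. Multiplexins held 2.21%, the other 3 genes 2.13% and the short-chain genes 1.60%. Among the fibrillar genes, Col5a1 (3.98 CPM per kilobase) and Col11a2 (3.67), chains of minor fibrillar collagens that regulate fibril assembly, were above the chains of type I collagen, Col1a2 (1.40) and Col1a1 (1.19), and far above Col3a1 (0.419), the chain of type III collagen. Fibril-associated Col16a1 lay at 3.34 CPM per kilobase, transmembrane Col23a1 at 2.501 and beaded filament Col6a2 at 1.87. The lengths used were 12136 bases for Col1a2 against 6563 for Col1a1, and 8326 for Col6a2 against 4380 for Col6a1. The places of Col1a2 and Col6a2 would be higher with a shorter length. The multiplexins Col15a1 (1.03) and Col18a1 (0.777), the short-chain Col8a1 (0.703) and Col8a2 (0.447), Col26a1 (1.07) and Col7a1 (0.471), the anchoring fibril collagen of skin, lay lower. At the bottom were Col9a1 (0.110), Col4a4 (0.0812), Col4a3 (0.0808) and Col6a6 (0.0612).

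**Figure D1:**
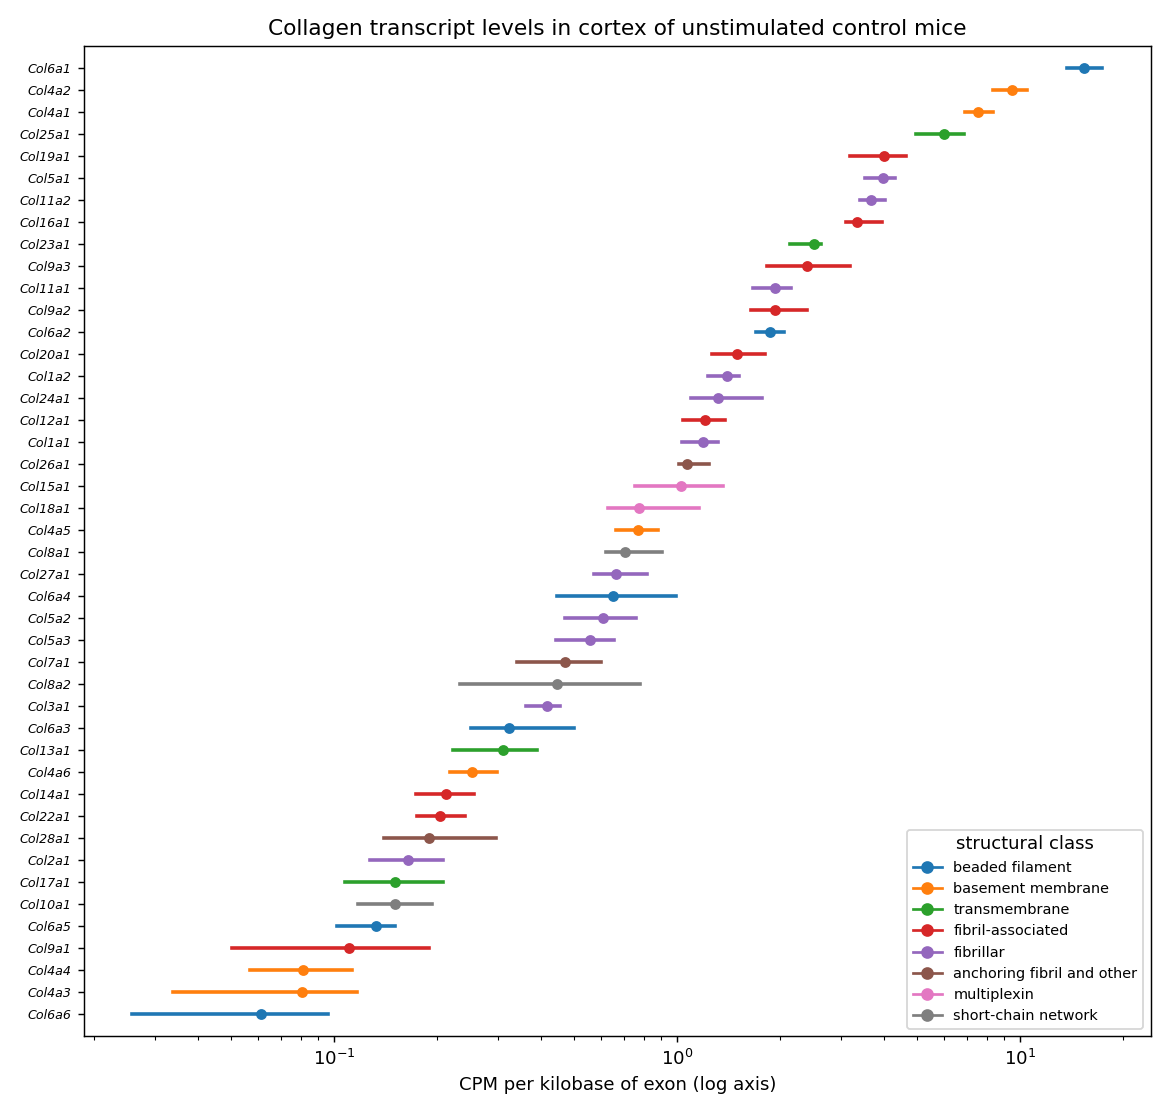
Level of each of the 44 collagen genes in cortex of 6 unstimulated control mice, as CPM per kilobase of exon on a log axis; points are means, lines run from the lowest to the highest library, and colours mark the structural class. Col6a1, Col4a2 and Col4a1 stand at the top, and most neighbouring lines overlap.

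With LPS, the abundant basement membrane chains rose and the type I chains fell. In control mice, 13 of the 44 collagen genes passed the test (edgeR quasi-likelihood test, Benjamini-Hochberg adjusted p under 0.05 over 21891 genes), against 17.3% of all genes tested. Of these 13, 6 rose (9.39% of all genes did) and 7 fell (7.92% of all genes did). In mice labelled Abca7, 6 of the 44 passed, against 11.8% of all genes, of which 4 rose (6.65% of all genes) and 2 fell (5.18% of all genes). The members' share called was thus 29.5% in control mice, above the background, and 13.6% under the Abca7 label, near it. In control mice, Ttr was under 100 CPM in 5 of 6 unstimulated libraries and in 0 of the LPS libraries. LPS and choroid plexus content can therefore not be fully told apart in the share of the control comparison. The median log2 fold change was -0.03 for collagens and 0.01 for all genes in control mice, and -0.04 and 0.01 under the Abca7 label. An unadjusted p under 0.05 was reached by 20 collagens in control mice (29.1% of all genes) and by 12 under the Abca7 label (23.5% of all genes). The genes called in both comparisons were Col4a1, Col4a2 and Col18a1, which rose, and Col1a1 and Col1a2, which fell. A further 8 were called in control mice only and 1 in mice labelled Abca7 only, and 30 in neither.

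**Figure D2:**
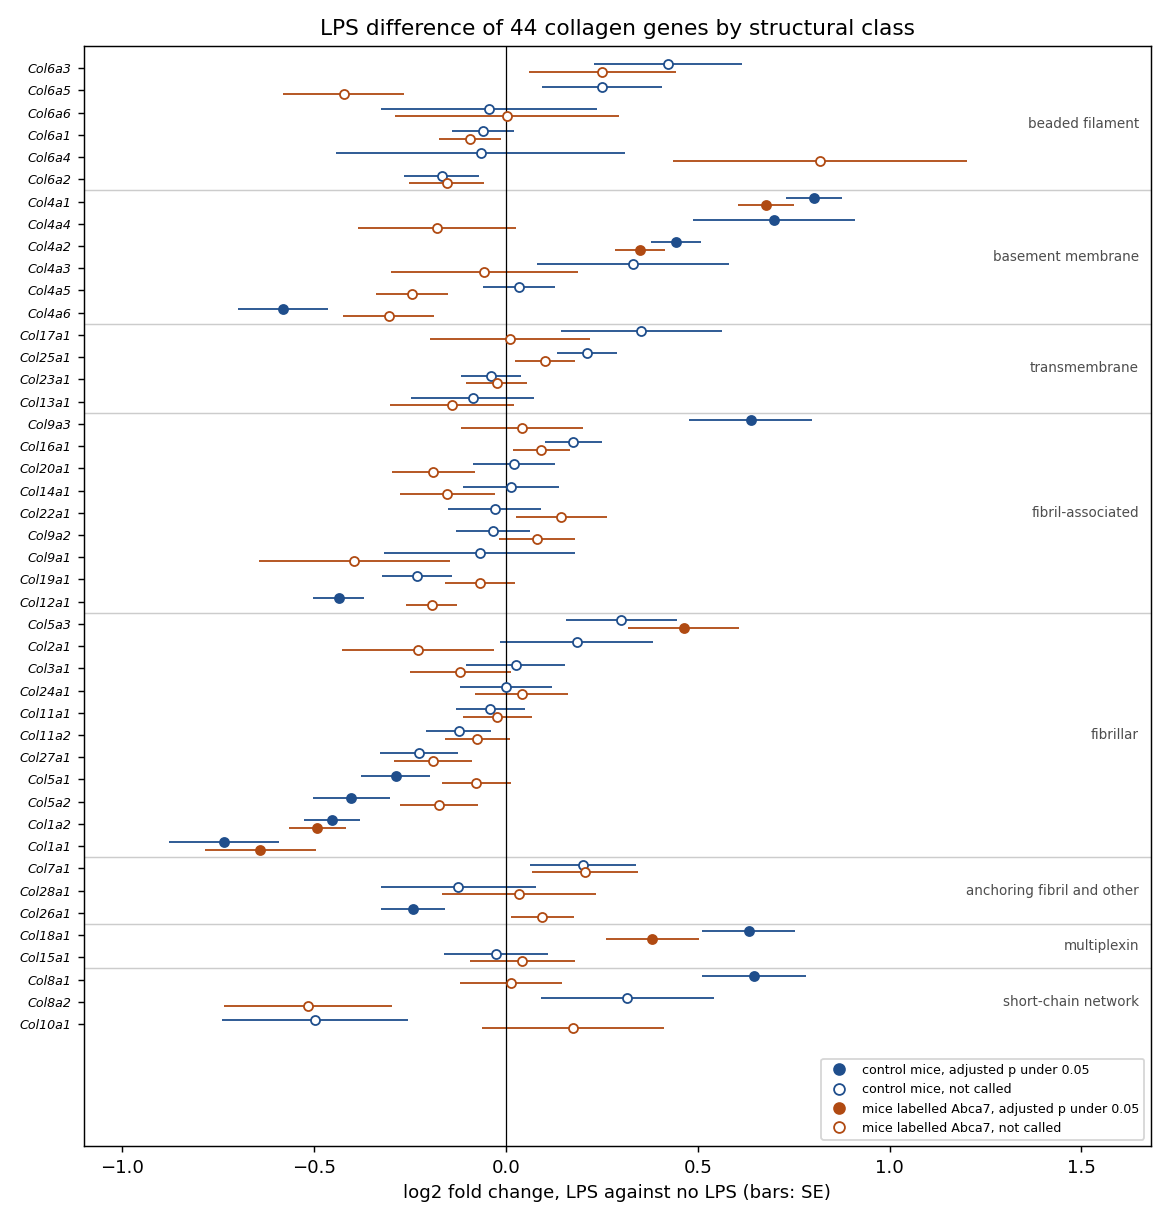
Log2 fold change with LPS for the 44 collagen genes, grouped by structural class, in control mice (blue) and mice labelled Abca7 (brown); bars are standard errors and filled points have an adjusted p under 0.05. Col4a1, Col4a2 and Col18a1 lie to the right and Col1a1 and Col1a2 to the left in both.

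Among the basement membrane chains, Col4a1 showed the smallest adjusted p of any collagen in both comparisons. Col4a1 and Col4a2 encode the chains of the type IV network that is present in nearly all basement membranes. Col4a1 ranged from 47.1 to 57.0 CPM in unstimulated control mice (median 50.5) and from 82.0 to 97.7 CPM with LPS (median 91.7). In mice labelled Abca7 it ranged from 46.7 to 63.6 CPM without (median 55.7) and from 72.1 to 99.2 CPM with LPS (median 90.0). The groups with and without LPS did not overlap in either genotype, as held upward for 5.38% of all genes in control mice and 3.49% under the Abca7 label. The log2 fold change of Col4a1 was 0.80 ± 0.07 (SE; adjusted p = 1.76e-09) in control mice and 0.68 ± 0.07 (adjusted p = 5.85e-08) under the Abca7 label.

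Its partner Col4a2 rose less. Col4a2 went from 55.3 to 69.1 CPM (median 63.6) without LPS to 78.6 to 95.9 CPM (median 84.1) with LPS in control mice, again without overlap. In mice labelled Abca7 it went from 61.6 to 82.1 CPM (median 67.3) to 78.5 to 94.0 CPM (median 89.6), and here the highest unstimulated library lay inside the LPS range. The log2 fold changes were 0.44 ± 0.07 (adjusted p = 1.07e-05) and 0.35 ± 0.07 (adjusted p = 0.000365). The ratio of Col4a1 to Col4a2, per kilobase, moved from 0.798 ± 0.0369 to 1.03 ± 0.0469 (SD, n = 6) in control mice and from 0.783 ± 0.0448 to 0.981 ± 0.0536 under the Abca7 label. This ratio differed with LPS by 0.36 and 0.33 on the log2 scale, each with an adjusted p = 0.00866 in a two-sided exact permutation test over 12 such tests, which were chosen after the values were seen.

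Both genes share a start region. On mm10, Col4a1 lies on the minus strand at chr8:11198423-11312826 and Col4a2 on the plus strand at chr8:11312805-11449287, so that their first exons overlap by 22 bases and the genes are read away from each other. The sequences below are shown because of this head-to-head layout, which recurs in Col4a6 (chrX:141165403-141474076, minus strand) and Col4a5 (chrX:141475385-141689234, plus strand). In RefSeq (GRCm38.p6), the annotated starts of that second pair lie 1342 bases apart. The first sequence is the overlap of the Col4a1 and Col4a2 first exons (chr8:11312805-11312826, plus strand), the second the 250 bases before the start of Col4a6 (chrX:141474077-141474326, minus strand), and the third 216 bases that end 34 bases before the RefSeq start of Col4a5 (chrX:141475169-141475384, plus strand). Capitals mark GGGCGG, the letters of a GC box, or CCAAT, on either strand.
Col4a1 and Col4a2 overlap: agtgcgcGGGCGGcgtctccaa
Col4a6 upstream: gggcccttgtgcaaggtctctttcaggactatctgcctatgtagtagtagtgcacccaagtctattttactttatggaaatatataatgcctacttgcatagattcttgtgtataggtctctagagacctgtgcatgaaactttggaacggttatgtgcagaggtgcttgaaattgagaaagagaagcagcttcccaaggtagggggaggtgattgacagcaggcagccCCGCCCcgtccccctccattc
Col4a5 upstream: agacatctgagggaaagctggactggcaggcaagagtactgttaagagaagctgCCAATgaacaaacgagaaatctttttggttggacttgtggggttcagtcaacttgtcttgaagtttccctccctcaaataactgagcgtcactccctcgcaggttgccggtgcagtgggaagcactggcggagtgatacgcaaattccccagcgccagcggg
The overlap holds 1 GGGCGG, the Col4a6 stretch holds 1 as its reverse complement, and the Col4a5 stretch holds 1 CCAAT. Of the 44 genes, 35 had a RefSeq promoter window of 300 bases, in 38 windows. GGGCGG occurred in 60.5% of these and in 35.7% of all 32851 windows, CCAAT in 34.2% and 37.4%, TATAAA in 13.2% and 13.6%, and TTCNNNGAA in 5.26% and 8.3%, counted on both strands. These are letter matches only, and no binding was measured.

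The other 4 type IV chains replace Col4a1 and Col4a2 in some specialised basement membranes. In control mice 1 of them rose and 1 fell, and none passed under the Abca7 label. Col4a6 fell in control mice, from 1.73 to 2.38 CPM (median 1.97) to 1.21 to 1.49 CPM (median 1.34) with LPS. The groups did not overlap, as held downward for 3.69% of all genes, and the log2 fold change was -0.58 ± 0.12 (adjusted p = 0.000635). With the Abca7 label the ranges were 1.31 to 2.14 CPM and 1.17 to 1.67 CPM and overlapped (log2 fold change -0.31, adjusted p = 0.104). Its head-to-head neighbour Col4a5 did not pass in either comparison (log2 fold change 0.03, adjusted p = 0.861, and -0.25, adjusted p = 0.0978). The ratio of Col4a5 to Col4a6, per kilobase, was 3.08 ± 0.405 without and 4.71 ± 0.699 with LPS in control mice (exact permutation test, adjusted p = 0.00866). The ratio under the Abca7 label was 3.63 ± 0.346 and 3.82 ± 0.676 (adjusted p = 0.675). Col4a4 and Col4a3 also lie head to head, on chromosome 1. Col4a4 rose in control mice from 0.603 to 1.19 CPM (median 0.798) to 0.928 to 1.75 CPM (median 1.52), with overlap (log2 fold change 0.70 ± 0.21, adjusted p = 0.0205), but not under the Abca7 label (-0.18, adjusted p = 0.669). Leaving out unstimulated control replicate 2 or 5 or LPS control replicate 2 ended this call, with an adjusted p of up to 0.0559. Col4a3 passed in neither (0.33, adjusted p = 0.417, and -0.06, adjusted p = 0.931). Its exons overlap those of C430014B12Rik on the opposite strand by 563 bases. That gene held 20291 counts over all libraries against 1398 of Col4a3, and the strand setting of the counting is not given, so Col4a3 is uncertain.

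Col18a1, a heparan sulphate-bearing basement membrane collagen whose end fragment is endostatin, rose in both comparisons. It ranged from 4.40 to 8.13 CPM (median 5.10) in unstimulated control mice and from 7.30 to 9.18 CPM (median 8.55) with LPS. All but 1 unstimulated library lay at or below 5.38 CPM. The exception was replicate 1, the library with high Ttr, which was also highest of its group in summed thalamus markers (174 CPM, next 92.7). In the Abca7-labelled groups, Col18a1 ranged from 5.15 to 7.47 CPM (median 5.97) without and from 5.87 to 8.85 CPM (median 8.33) with LPS. The log2 fold changes were 0.63 ± 0.12 (adjusted p = 0.000308) and 0.38 ± 0.12 (adjusted p = 0.0377). With the Ttr level as a covariate, the value in control mice was 0.31 (adjusted p = 0.239), and the call under the Abca7 label was lost without unstimulated replicate 1, 2, 5 or 6 or LPS replicate 1, 2, 3 or 5 of that label (adjusted p up to 0.0948). With age as a factor, the value under the Abca7 label was 0.33 (adjusted p = 0.128). Its relative Col15a1, a multiplexin of the outer basement membrane zone, did not pass (-0.03, adjusted p = 0.929, and 0.04, adjusted p = 0.902).

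**Figure D3:**
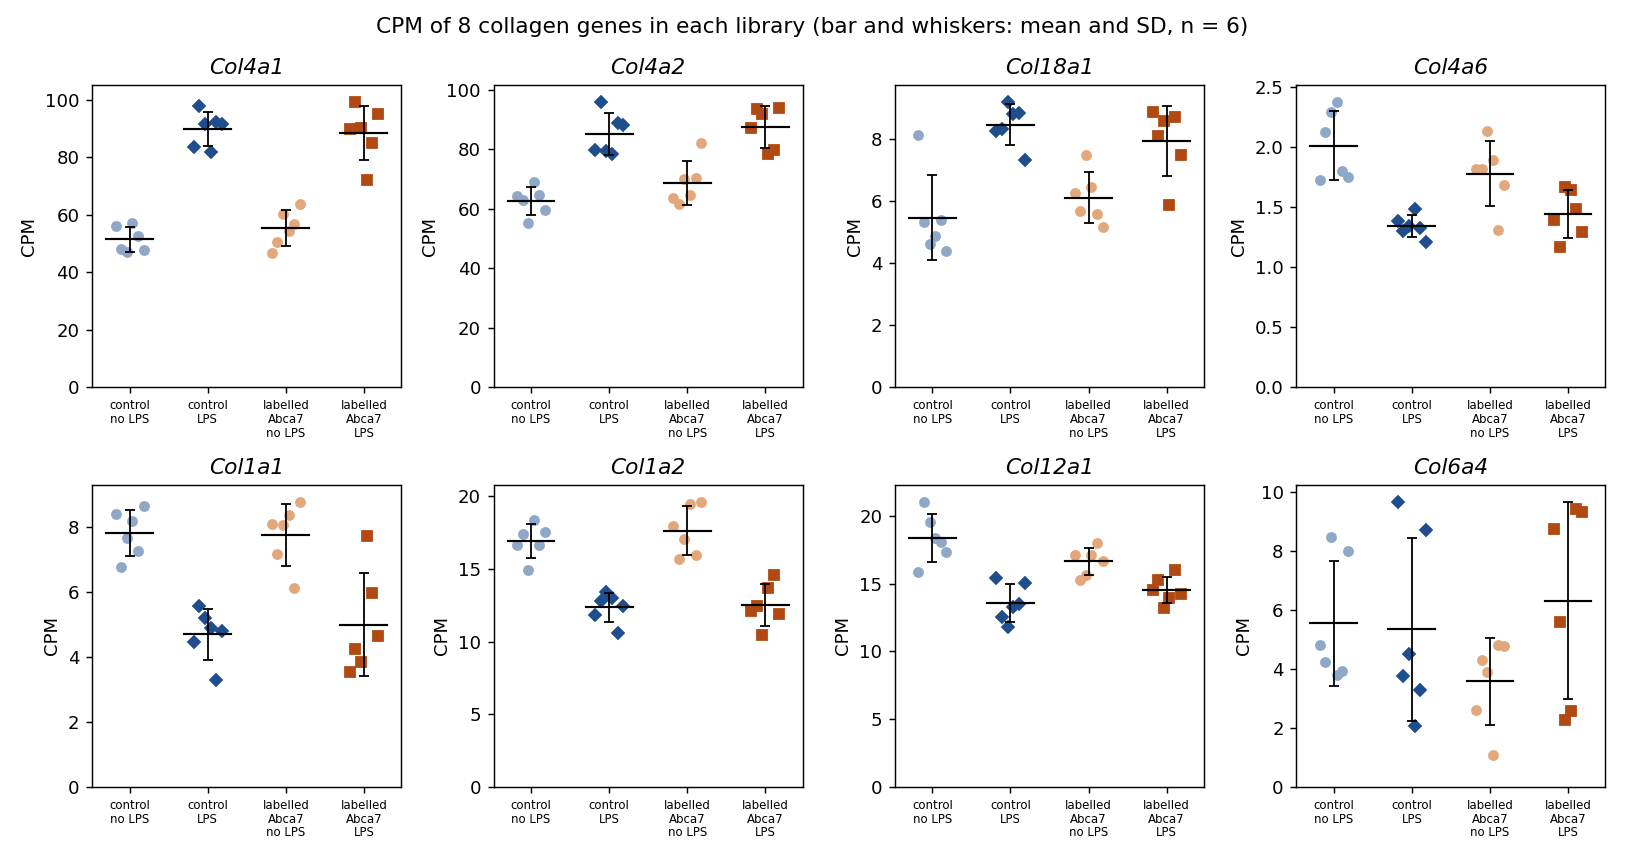
CPM of 8 collagen genes in each of the 24 libraries, by group; points are libraries, horizontal bars are group means and whiskers are SDs (n = 6). Col4a1 with LPS sits above its unstimulated group in both genotypes, Col1a2 sits below, and Col6a4 spreads widely within each group.

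Of the 11 fibrillar genes, 4 fell and 7 did not pass in control mice, and 2 fell, 1 rose and 8 did not pass under the Abca7 label. Col1a1 and Col1a2 encode type I collagen, the main fibril of skin, bone and meninges. Col1a1 (chr11:94936224-94953042) ranged from 6.77 to 8.66 CPM (median 7.93) in unstimulated control mice and from 3.30 to 5.58 CPM (median 4.86) with LPS, without overlap. It ranged under the Abca7 label from 6.13 to 8.78 CPM (median 8.07) without and from 3.55 to 7.73 CPM (median 4.46) with LPS, where 1 LPS library lay inside the unstimulated range. Col1a1 changed by -0.735 ± 0.14 on the log2 scale (adjusted p = 0.000414) in control mice and by -0.64 ± 0.14 (adjusted p = 0.00254) under the Abca7 label.

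Col1a2 (chr6:4504814-4541543) gave the tighter groups. It ranged from 15.0 to 18.4 CPM (median 17.02) without and from 10.6 to 13.4 CPM (median 12.6) with LPS in control mice. The ranges under the Abca7 label were 15.7 to 19.6 CPM (median 17.5) and 10.4 to 14.6 CPM (median 12.3). Neither pair of groups overlapped, as held downward for 2.24% of all genes under the Abca7 label. The log2 fold changes were -0.45 ± 0.07 (adjusted p = 3.50e-05) and -0.49 ± 0.07 (adjusted p = 1.49e-05). The ratio of Col1a1 to Col1a2, per kilobase, went from 0.858 ± 0.0886 to 0.701 ± 0.0731 in control mice (exact permutation test, adjusted p = 0.0130) and from 0.814 ± 0.0576 to 0.730 ± 0.170 under the Abca7 label (adjusted p = 0.325).

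Col5a2 and Col5a1, chains of the type V collagen that nucleates type I fibrils, fell in control mice only. Col5a2 ranged from 4.53 to 7.29 CPM (median 6.02) without and from 3.90 to 5.08 CPM (median 4.25) with LPS (log2 fold change -0.40 ± 0.10, adjusted p = 0.00496). Col5a1 ranged from 30.0 to 36.7 CPM (median 33.6) without and from 21.9 to 35.4 CPM (median 26.5) with LPS (-0.29 ± 0.09, adjusted p = 0.0260). Its call was lost without unstimulated control replicate 4 or 5 or LPS control replicate 2, 3 or 4 (adjusted p up to 0.0822). Values under the Abca7 label were -0.18 (adjusted p = 0.317) for Col5a2 and -0.08 (adjusted p = 0.673) for Col5a1. Col5a3, another type V chain, went the other way. It rose under the Abca7 label from 2.38 to 4.97 CPM (median 3.92) to 3.75 to 6.79 CPM (median 5.12), with overlap (0.46 ± 0.15, adjusted p = 0.0348), and its value in control mice was 0.30 (adjusted p = 0.166). That call was lost without unstimulated replicate 1, 2 or 6 or LPS replicate 1, 2 or 3 of the Abca7 label (adjusted p up to 0.110), and with age as a factor (0.30, adjusted p = 0.181).

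The remaining fibrillar genes did not pass. Col3a1, which assembles with type I fibrils in soft tissue, gave 0.03 (adjusted p = 0.928) and -0.12 (adjusted p = 0.657). Col11a1, Col11a2, Col24a1, Col27a1 and Col2a1, the cartilage collagen, had log2 fold changes between -0.23 and 0.18. With the Ttr covariate, Col27a1 was called in control mice (-0.47, adjusted p = 0.0245).

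Marker levels of meningeal fibroblasts also differed with LPS, and which cells made these chains here was not measured. The 12 meningeal fibroblast markers, none of them a collagen and none at 0, had a mean log2 CPM that was 0.56 lower with LPS in control mice and 0.65 lower under the Abca7 label (two-sided exact permutation test, adjusted p = 0.0188 over 52 marker tests, for both). Of the 12, 6 fell and 1 rose in control mice, and 5 fell and 1 rose under the Abca7 label. Their summed level was 102 to 121 CPM without and 87.2 to 113 CPM with LPS in control mice, and 109 to 126 and 64.9 to 126 CPM under the Abca7 label. With this marker level as a covariate, Col1a1 gave -0.45 (adjusted p = 0.157) and -0.33 (adjusted p = 0.428), and Col1a2 gave -0.30 (adjusted p = 0.0513) and -0.32 (adjusted p = 0.0750). In the same fit, Col18a1 gave 0.51 (adjusted p = 0.0540) and 0.24 (adjusted p = 0.541), Col4a2 0.18 (adjusted p = 0.292) under the Abca7 label, and Col5a1 -0.15 (adjusted p = 0.508), Col9a3 0.25 (adjusted p = 0.504) and Col4a4 0.88 (adjusted p = 0.0692) in control mice. The mean marker level was 2.14 or above in every unstimulated library and 1.98 or below in every LPS library, so the LPS label and the markers cannot be told apart there. In bulk tissue, fewer cells of a type and less RNA per cell cannot be told apart either.

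Endothelial markers moved against Col4a1 and Col4a2. The 10 markers, none at 0, had a mean log2 CPM 0.67 lower with LPS in both genotypes (exact permutation test, adjusted p = 0.0188), with 7 lower and 2 higher in each comparison. The 11 pericyte and smooth muscle markers differed by -0.08 (adjusted p = 0.195) and -0.19 (adjusted p = 0.0625), and 3 of them fell in each. Microglial markers were also lower, by 0.72 and 0.60 (adjusted p = 0.0188), with 6 of 7 falling in each comparison and the other rising under the Abca7 label. Of the other lists, the mean of 7 astrocyte markers was 0.11 higher with LPS in control mice (adjusted p = 0.0482), and no other marker mean passed in any of the 4 comparisons of groups. Col4a1 kept its call with the meningeal marker level as a covariate and in the other alternatives run, fits without a library included. Its lowest log2 fold change over the alternatives with all libraries was 0.67 in control mice and 0.52 under the Abca7 label.

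Of the fibril-associated collagens, which coat fibrils and link them to their surroundings, Col12a1 fell and Col9a3 rose in control mice. Col12a1 (chr9:79598991-79718831), a collagen of dense connective tissue, ranged from 15.9 to 21.03 CPM (median 18.2) without and from 11.8 to 15.4 CPM (median 13.4) with LPS, without overlap. Its log2 fold change was -0.44 ± 0.07 (adjusted p = 1.66e-05), and it was called in all alternatives. Col12a1 ranged under the Abca7 label from 15.3 to 17.99 CPM and from 13.2 to 16.0 CPM (-0.19 ± 0.07, adjusted p = 0.0604), and DESeq2 called it there (adjusted p = 0.0332). Over the alternatives apart from leaving out 1 library, its value under that label ran from -0.20 to -0.05.

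Col9a3 (chr2:180597790-180622189), a chain of the type IX collagen of cartilage, ranged from 7.05 to 12.3 CPM (median 9.16) without and from 11.8 to 17.8 CPM (median 13.6) with LPS in control mice. The overlap came from unstimulated replicate 1. The log2 fold change was 0.64 ± 0.16 (adjusted p = 0.00504) in control mice and 0.04 (adjusted p = 0.919) under the Abca7 label. Its exons overlap those of Tcfl5 on the opposite strand by 234 bases, and 4.88% of its exon 50-mers occur in other genes. The other 7 fibril-associated genes, Col9a1, Col9a2, Col14a1, Col16a1, Col19a1, Col20a1 and Col22a1, did not pass. Their values lay between -0.23 and 0.17 in control mice and between -0.40 and 0.14 under the Abca7 label. Col19a1 (-0.23, adjusted p = 0.0798, in control mice) and Col16a1 (0.17, adjusted p = 0.111) came nearest, and DESeq2 called Col19a1 there (-0.24, adjusted p = 0.0483). Over the alternatives apart from leaving out 1 library, Col19a1 ran from -0.24 to -0.03 and Col16a1 from 0.01 to 0.18 in control mice. Exons of Col20a1 overlap those of BX649560.1 on the same strand by 79 bases. That gene held 23159 counts over all libraries against 9295 of Col20a1, so the level of Col20a1 is uncertain.

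Of the short-chain collagens, which include Col8a1 and Col8a2 of vessel walls and of the corneal Descemet membrane, Col8a1 rose in control mice. Col8a1 (chr16:57624258-57754737) ranged from 3.18 to 4.60 CPM (median 3.38) in unstimulated control mice and from 4.60 to 6.88 CPM (median 5.55) with LPS (0.65 ± 0.13, adjusted p = 0.000896). Under the Abca7 label it ranged from 3.27 to 6.24 CPM (median 5.01) without and from 3.58 to 5.90 CPM (median 4.90) with LPS (0.01, adjusted p = 0.973). The 7 libraries with Ttr under 100 CPM, 5 of them unstimulated controls, were the 7 lowest in Col8a1 (3.18 to 3.80 CPM), and the other libraries had 4.235 CPM or more. Those labelled Abca7 were unstimulated replicate 1 and LPS replicate 6, with Ttr at 48.02 and 24.3 CPM. Col8a2 did not pass (0.32, adjusted p = 0.387, and -0.52, adjusted p = 0.146), but with age as a factor it was called lower under the Abca7 label (-0.79, adjusted p = 0.0247). Neither comparison called Col10a1, the collagen of growth plate cartilage (-0.50, adjusted p = 0.171, and 0.17, adjusted p = 0.732).

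The 11 choroid plexus markers, none at 0 in all libraries, had a mean log2 CPM that was 1.77 higher with LPS in control mice (exact permutation test, adjusted p = 0.0625), and 9 of the 11 rose in the gene test there. Under the Abca7 label the difference was -0.30 (adjusted p = 0.732) and no marker passed. With log2 CPM of Ttr as a covariate, Col8a1 gave 0.12 (adjusted p = 0.746) in control mice, Col9a3 0.17 (adjusted p = 0.730) and Col4a4 0.14 (adjusted p = 0.864). In the same fit Col4a6 gave -0.52 (adjusted p = 0.0812). Because 5 of the 7 libraries with low Ttr are the unstimulated controls, this covariate takes up part of the LPS difference by construction.

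**Figure D4:**
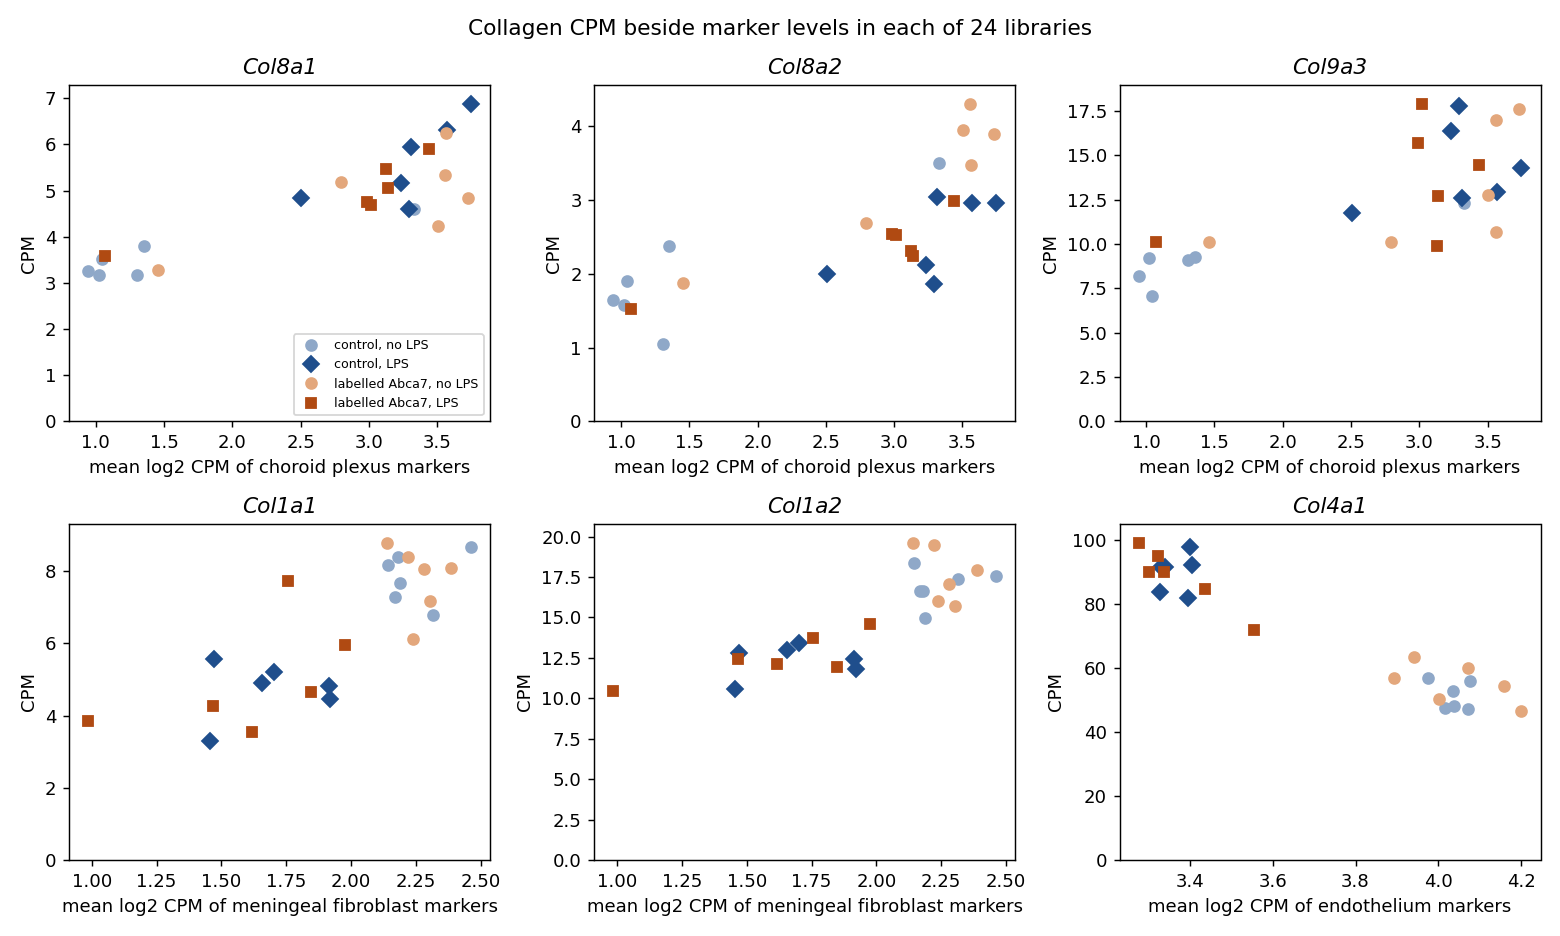
CPM of 6 collagen genes against the mean log2 CPM of markers of choroid plexus (upper row), meningeal fibroblasts or endothelium (lower row) in each of the 24 libraries; colours and shapes mark the groups. Libraries low in choroid plexus markers are low in Col8a1, and the LPS libraries have lower meningeal and endothelial marker levels with lower Col1a1 and Col1a2 and higher Col4a1.

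None of the 6 beaded filament genes passed with LPS. Type VI collagen forms microfilaments next to basement membranes, from Col6a1, Col6a2 and a long chain such as Col6a3. Col6a1, the most abundant collagen per kilobase, had medians of 66.7, 64.5, 74.5 and 68.4 CPM in the 4 groups (LPS -0.06, adjusted p = 0.690, and -0.09, adjusted p = 0.548). Col6a2 gave -0.17 and -0.15, Col6a3 0.42 (adjusted p = 0.141) and 0.25, Col6a5 0.25 and -0.42 (adjusted p = 0.0863), and Col6a6 -0.04 and 0.00. Col6a4 gave -0.07 (adjusted p = 0.936) and 0.82 ± 0.38 (adjusted p = 0.193).

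Among the 4 transmembrane collagens, Col25a1 came nearest to a call. It ranged from 46.0 to 63.3 CPM without and from 55.2 to 73.4 CPM with LPS in control mice (0.21 ± 0.08, adjusted p = 0.0616), and the fit of these 2 groups alone called it (adjusted p = 0.0445). Over the alternatives apart from leaving out 1 library, its log2 fold change in control mice ran from 0.04 to 0.21. Col13a1, Col17a1 and Col23a1 gave between -0.09 and 0.35 in control mice and between -0.14 and 0.01 under the Abca7 label. In the remaining group, Col26a1 fell in control mice, from 5.93 to 7.22 CPM (median 6.11) to 4.59 to 6.62 CPM (median 4.99), with overlap (-0.24 ± 0.08, adjusted p = 0.0439). That call was lost in 10 of 24 fits that left out a library: unstimulated control replicate 1, 2, 4 or 5, LPS control replicate 1, 2, 3 or 4, unstimulated replicate 2 or LPS replicate 3 labelled Abca7 (adjusted p up to 0.129). It was also lost without a filter, with age, in the fit of 2 groups, and with the meningeal (-0.22, adjusted p = 0.293) or Ttr covariate (-0.22, adjusted p = 0.354). The value under the Abca7 label was 0.09 (adjusted p = 0.552). Col7a1 gave 0.20 and 0.21, and Col28a1 -0.12 and 0.03.

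Between the genotype labels, no collagen passed the test. Without LPS, 0 of 44 were called against 0.032% of all genes (0.0137% higher and 0.0183% lower), and 6 had an unadjusted p under 0.05 against 6.51% of all genes. The comparison shares its unstimulated control libraries with the LPS comparison in control mice. In the mice labelled Abca7, Col4a4 differed by 0.74 (adjusted p = 0.392), Col8a2 by 0.75 (adjusted p = 0.423), Col9a3 by 0.51 (adjusted p = 0.473) and Col8a1 by 0.44 (adjusted p = 0.466), all upward. Choroid plexus markers differed in the same direction by 1.60 (exact permutation test, adjusted p = 0.0900), and their part in these values was not tested. No collagen was called with the Ttr covariate, but none was called without it either, so that count cannot show their part. Over the alternatives apart from leaving out 1 library, the log2 fold change of Col8a2 ran from -0.147 to 1.01. Leaving out unstimulated control replicate 1 brought Col8a2 to a call (adjusted p = 0.0419). That replicate is the library of its group with high Ttr (261 CPM), and the fit without it keeps only unstimulated controls under 100 CPM of Ttr.

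Under LPS, 0 of 44 were called between genotype labels against 0% of all genes, and 6 had an unadjusted p under 0.05 against 7.99% of all genes. Col22a1, a collagen of muscle-tendon junctions, ranged from 1.676 to 1.974 CPM in control mice and from 2.13 to 2.51 CPM under the Abca7 label, without overlap (0.40 ± 0.12, adjusted p = 0.340), as held upward for 0.201% of all genes. Col26a1 differed by 0.35 ± 0.08 (adjusted p = 0.267), and DESeq2 called it (adjusted p = 0.0396). A set of 5 collagens lies on chromosome 10, as Abca7 does (chr10:79996494-80015572), and none was called between labels. Without LPS, Col10a1 differed by -0.08, Col13a1 by 0.10, Col6a1 by 0.10, Col6a2 by 0.08 and Col18a1 by 0.16. With LPS, the values were 0.59 for Col10a1 (adjusted p = 0.526), which was the highest of all collagens, 0.04 for Col13a1, 0.07 for Col6a1, 0.10 for Col6a2 and -0.09 for Col18a1.

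No collagen passed the test of whether its LPS difference differed between the genotype labels. The test of the interaction called 0 of 44, against 0% of all genes, while 8 had an unadjusted p under 0.05 (18.2% of members, 3.4% of all genes). Those 8 were Col4a4 (-0.88), Col8a2 (-0.83), Col6a5 (-0.67), Col8a1 (-0.63), Col9a3 (-0.60), Col4a5 (-0.28), Col12a1 (0.24) and Col26a1 (0.34), each with an adjusted p = 1. The 9 genes called with LPS under a single label are therefore not shown to differ between the labels.

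Summed over the 44 genes, collagen RNA was higher with LPS in control mice, and the difference lay in Col4a1 and Col4a2. It ranged from 514 to 581 CPM (mean 549 ± 25.1) without and from 571 to 626 CPM (mean 601 ± 23.7, SD, n = 6) with LPS, a difference of 9.58% (two-sided exact permutation test, adjusted p = 0.0260). Without Col4a2, the member with most counts, the difference was 30.1 CPM (adjusted p = 0.113) in place of 52.6 CPM. In sums chosen after the values were seen, it was 14.2 CPM without Col4a1 (adjusted p = 0.358) and -8.29 CPM without both (adjusted p = 0.420). The sum under the Abca7 label went from 579 ± 32.0 to 619 ± 23.5 CPM, a difference of 6.94% (adjusted p = 0.0649), or 40.2 CPM, and of -11.8 CPM without Col4a1 and Col4a2 (adjusted p = 0.323). Between genotype labels it differed by 5.43% (adjusted p = 0.141) without LPS and by 2.89% (adjusted p = 0.219) with LPS.

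Pairs of collagen genes varied together to different degrees within groups. Most pairs were chains that assemble in the same protein, and Col1a1 with Col3a1 and Col15a1 with Col18a1 were added as pairs that do not. After each group's mean was subtracted, log2 CPM of Col4a1 and Col4a2 correlated over the 24 libraries with Pearson's r = 0.85 and Spearman's rho = 0.87 (permutation test, adjusted p = 1.3e-04 for r over 13 pairs and 6.5e-05 for rho). Col8a1 and Col8a2 gave r = 0.78 and rho = 0.69 (adjusted p = 1.3e-04 and 0.00113 by permutation), and Col1a1 and Col1a2 gave r = 0.73 and rho = 0.80 (adjusted p = 1.3e-04 and 6.5e-05 by permutation). With the 2 libraries farthest from the median of the first gene left out, r was 0.86, 0.67 and 0.70. Col6a1 and Col6a2 (r = 0.63, rho = 0.64), Col11a1 and Col11a2 (0.58 and 0.58), Col9a2 and Col9a3 (0.57 and 0.63) and Col1a1 and Col3a1 (0.49 and 0.50) also passed. Their adjusted p for r was 0.00387, 0.00725, 0.00808 and 0.0331 by permutation, and r without those 2 libraries was 0.57, 0.50, 0.66 and 0.56.

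For the other pairs the correlation did not pass the threshold. Col4a5 and Col4a6 gave r = 0.34 (permutation adjusted p = 0.128), Col4a3 and Col4a4 r = 0.30 (permutation adjusted p = 0.168), and Col5a1 and Col5a2 r = 0.02 (permutation adjusted p = 0.926). Col6a1 and Col6a3 gave r = -0.42 (permutation adjusted p = 0.0605), Col15a1 and Col18a1 r = 0.42 (permutation adjusted p = 0.0605), and Col9a1 and Col9a2 r = 0.39 (permutation adjusted p = 0.0741). Libraries share depth scaling and tissue makeup, so these values describe covariation in the dissected pieces.

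Among the enzymes that mature collagen, 3 of 5 lysyl oxidases rose in both comparisons. Of 32 biosynthesis genes tested, 8 rose and 2 fell with LPS in control mice, and 5 rose and 3 fell under the Abca7 label. Of all genes tested, 9.39% rose and 7.92% fell in control mice, and 6.65% and 5.18% did under the Abca7 label. Lox, the lysyl oxidase that cross-links collagen and elastin outside the cell, ranged from 0.415 to 0.684 CPM without and from 2.34 to 3.29 CPM with LPS in control mice (2.46 ± 0.26, adjusted p = 3.27e-08). With the Abca7 label it ranged from 0.383 to 0.784 CPM and from 0.589 to 3.23 CPM (1.85 ± 0.26, adjusted p = 7.04e-06). Its relatives Loxl4 (1.59 ± 0.278 and 1.446 ± 0.285) and Loxl2 (1.36 ± 0.163 and 0.90 ± 0.163) rose in both comparisons. Loxl4 had few counts, at 0.160 to 0.386 CPM without and 0.576 to 1.158 CPM with LPS in control mice. Under the Abca7 label Loxl4 was at 0.1795 to 0.3286 CPM and at 0.3272 to 1.17 CPM. Loxl1 (-0.09, adjusted p = 0.788, and -0.32, adjusted p = 0.301) and Loxl3 (-0.06, adjusted p = 0.544, and -0.02, adjusted p = 0.870) passed in neither. P4ha1, a subunit of the prolyl hydroxylase that stabilises the triple helix, fell from 43.6 to 53.8 CPM to 29.9 to 34.8 CPM in control mice (-0.60 ± 0.07, adjusted p = 2.69e-07) and by 0.50 on the log2 scale under the Abca7 label. Serpinh1, the collagen chaperone of the endoplasmic reticulum, fell by 0.28 (adjusted p = 0.0435) and 0.37 (adjusted p = 0.00961).

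Of 10 collagen receptors tested, 3 fell in both comparisons and none rose, against 7.92% of all genes falling in control mice and 5.18% under the Abca7 label. These were Lair1, an inhibitory receptor of immune cells (-0.67 and -0.38), Mrc2, an endocytic receptor that takes up collagen (-0.57 and -0.46), and Itga10, an integrin chain that binds collagen (-0.56 and -0.67).

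Basement membrane partners of type IV collagen were called in both directions. Of 17 genes, 2 rose and 4 fell in control mice (9.39% and 7.92% of all genes), and 1 rose and 5 fell under the Abca7 label (6.65% and 5.18% of all genes). Lama1, a laminin chain of the pial basement membrane, fell by 1.16 and 1.07 on the log2 scale. Lamb2 fell by 0.42 and 0.45, and Lamc3 by 0.49 and 0.39. Lamc1, the gamma chain of most laminins, rose from 37.9 to 41.7 CPM to 46.6 to 54.5 CPM in control mice (0.29 ± 0.04, adjusted p = 2.88e-06) and by 0.22 under the Abca7 label. Lamb3 rose in control mice only (0.40, adjusted p = 0.0397, against 0.17, adjusted p = 0.484).

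Of 6 collagen-degrading enzymes tested, 2 rose in each comparison, against 9.39% of all genes in control mice and 6.65% under the Abca7 label. These were Mmp13 and Fap in control mice and Mmp13 and Mmp14 under the Abca7 label. Mmp13, a collagenase, was at 0 to 0.0711 CPM in unstimulated control mice and at 1.202 to 2.263 CPM with LPS (adjusted p = 1.03e-08). Under the Abca7 label it was at 0 to 0.115 CPM and at 0.118 to 1.93 CPM (adjusted p = 3.71e-07). Fap, a fibroblast protease that trims collagen fragments, rose in control mice (0.48, adjusted p = 0.00283) and gave 0.06 (adjusted p = 0.814) under the Abca7 label. Mmp14, a membrane-bound collagenase, gave 0.30 (adjusted p = 0.1004) in control mice and 0.37 (adjusted p = 0.0474) under the Abca7 label. Neither genotype comparison nor the interaction called any gene of these 4 lists, which hold 65 tested genes.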

How the data were processed

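RNA of cortex from 24 mice was sequenced, and the authors deposited a table of raw counts per gene, made with MAP-RSeq 2.1.1 and aligned with STAR 2.5.2b to mm10, per the series design and the submitters' processing notes. No label or file header names the annotation release, the strand setting or the treatment of reads with several matches. Counts were fitted in edgeR 4.0.16 (R 4.3.3) with a quasi-likelihood model over all 24 libraries, 1 coefficient per group, TMM scaling and the default expression filter. It left 21891 of 43346 genes, all 44 collagens among them. Tests were two-sided, adjusted by Benjamini-Hochberg over all genes tested, with a threshold of 0.05. Errors of fold changes are standard errors from the F statistic. CPM use TMM library sizes, and log2 CPM a prior count of 2. Levels per kilobase use the exon length in the deposited table. Single values and marker means were compared with exact permutation tests, whose smallest p for 6 against 6 is 0.00216, and correlations with 100000 permutations, whose smallest p is 1.0e-05. The fitting script was tested on simulated data.

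The collagens and the gene lists were chosen with earlier results of these data known. Every collagen is named, called ones with their ranges, and from each related list the 3 largest called changes in each direction in control mice. Alternatives were DESeq2 1.42.0, RLE factors, other filters, leaving out the ribosomal loci, age, marker covariates, only the compared groups, and each library left out in turn. Titles carry an animal number but nothing else says that animals were independent. P-values judge differences between groups against the spread between these libraries. The lowest count of any collagen in a library was 14, so counting error is not small for the members with fewest counts. Col6a6, with 16 to 51 counts, had a within-group SD of 0.50 on the log2 scale, against a median of 0.21 over the collagens. Sequences are from RefSeq. Mia2, Gp6 and Mmp8 did not pass the filter.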

Additional observations from a re-analysis of the deposited data

Results flagged for a closer look

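In 11 of 176 combinations of a collagen and a group of 6 libraries, a single library stood apart from the other 5 by Dixon's criterion (gap over range above 0.625), where chance gives about 1 in 20. Unstimulated control replicate 1, the library of its group with high Ttr and the highest thalamus markers, was high in 3 genes. It had 26.8 CPM of Col16a1 (others at most 22.5), 8.13 CPM of Col18a1 (others 4.40 to 5.38) and 6.01 CPM of Col6a3 (others 3.01 to 3.80). Unstimulated control replicate 4 had 12.2 CPM of Col23a1, below the others (14.3 to 15.1), and replicate 5 had 7.22 CPM of Col26a1, above them (5.93 to 6.20).

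Under the Abca7 label, unstimulated replicate 1 had 9.34 CPM of Col20a1 (others 6.39 to 7.33). Among the LPS libraries, replicate 5 was low in Col11a2 (19.7 CPM, others 23.7 to 25.8) and high in Col3a1 (5.70 CPM, others 2.53 to 3.54). Replicate 6 was high in Col19a1 (29.6 CPM, others 23.5 to 25.2), replicate 1 was high in Col4a5 (5.38 CPM, others 4.24 to 4.57), and replicate 3 was low in Col22a1 (2.13 CPM, others 2.41 to 2.51).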

How the results depend on the processing

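With the meningeal fibroblast marker level as a covariate, 6 collagens were called with LPS in control mice in place of 13 (6 of them shared) and 2 in place of 6 under the Abca7 label (1 shared, Col4a1, besides Col6a4 at 2.06, adjusted p = 0.00620). The related lists gave 11 in place of 21 calls and 10 in place of 19, and Col5a3 under the Abca7 label reversed to -0.084 (adjusted p = 0.855). With Ttr as a covariate, control mice gave 7 collagens (6 shared) and 13 related genes. The share of all genes called is not given for the fits in this section. These counts therefore cannot show a dependence particular to collagens. Between genotype labels without LPS, 1 collagen was called with age as a factor (Col8a2, 1.01, adjusted p = 0.0378) in place of 0, and under LPS 1 with DESeq2 (Col26a1). Leaving out single libraries gave 10 to 16 collagens in control mice, 4 to 7 under the Abca7 label, 0 to 1 between labels without LPS, and 18 to 24 and 16 to 20 related genes. The remaining settings gave 12 to 14 collagens in control mice and 5 to 7 under the Abca7 label, and the interaction called 0 in all of them. The total in control mice differed by 30.1 CPM without Col4a2 (adjusted p = 0.113), by 14.2 CPM without Col4a1 (adjusted p = 0.358) and by -8.29 CPM without both (adjusted p = 0.420), the latter 2 chosen after seeing the data. As a median over markers, the astrocyte level differed with LPS in control mice by 0.13 (adjusted p = 0.231, against 0.11 and 0.0482 as a mean), and the oligodendrocyte precursor level by 0.25 (adjusted p = 0.0482, against 0.09 and 0.261). The causes were not tested. No paired analysis was possible because the replicate numbers only name libraries.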

Other observations

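Col6a4, a long chain of type VI collagen, varied most within groups of all 44 collagens (SD 0.79 on the log2 scale, against 0.50 for Col6a6, the next). It ranged from 1.09 to 9.66 CPM over the 24 libraries, on mm10 at chr9:105989454-106096783. The spread was present in every group: 3.81 to 8.46 CPM and 2.08 to 9.66 CPM in control mice without and with LPS, and 1.09 to 4.82 CPM and 2.26 to 9.42 CPM under the Abca7 label. Its neighbours spread less: Col6a5 ranged from 0.824 to 2.30 CPM and Col6a6 from 0.237 to 0.883 CPM over all libraries. In the library with the lowest Col6a4 they were at 1.204 and 0.675 CPM. Exons of Col6a4 overlap those of Gm47575 and Gm36993 on the opposite strand by 289 bases. Those genes held 333 counts over all libraries against 7399 of Col6a4, and the strand setting of the counting is not given. Whether the nearby locus RP24-294A16.3 shares bases or reads with Col6a4 was not tested. The locus RP24-294A16.3, chosen after its values were seen, was at 0 to 0.105 CPM in the 3 libraries with least Col6a4 (1.09 to 2.26 CPM). It was at 0.431 to 0.590 CPM in the 5 libraries with most Col6a4 (8.71 to 9.66 CPM), which came from LPS groups of both genotype labels. The next libraries down were unstimulated control replicates 3 and 6, with Col6a4 at 8.46 and 7.99 CPM and the locus at 0.373 and 0.176 CPM. The cut at 5 libraries was also made after the values were seen, and Col6a4 was called in neither LPS comparison.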
